A study of Homo sapiens with 4 samples.

Results

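The genes of the DNA methylation machinery, namely the writers DNMT1, DNMT3A and DNMT3B, the cofactor UHRF1 and the erasers TET1, TET2 and TET3, were examined for open chromatin in LNCaP cells and in enzalutamide-resistant cells derived from them. These 7 genes were chosen by name out of 59679 RefSeq genes, and every ATAC-seq summit within a gene record or 10 kb on either side was assigned to that gene. The windows of the 7 genes held 61 of the 150917 open regions of the series.

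LNCaP is a prostate cancer cell line that depends on the androgen receptor, and enzalutamide is an inhibitor of that receptor. ATAC-seq uses a transposase that cuts accessible DNA, and a summit is the point of strongest signal within a peak. The series held 2 libraries labelled LNCaP, of genotype WT and with no treatment named, and 2 labelled LNCaP-resistance, whose genotype reads resistance cells and whose treatment is enzalutamide. The labels give RPMI-1640 with fetal bovine serum for both, whereas the study's methods describe a derivation in charcoal-stripped serum followed by rising enzalutamide doses, so drug, serum history and the passage of 1 derived population cannot be told apart. The study's text sets LNCaP accessibility beside that of its LN-35 subline, and it also counts differing peaks for each resistant line. No subline is named in the labels. The labels number the libraries of each group as repeats 1 and 2 under a batch tag and do not say that the libraries came from separate cultures, so the spread between the libraries of a group may be technical.

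The lists held 117245 and 107344 summits in LNCaP replicates 1 and 2, and 70866 and 45618 summits in resistant replicates 1 and 2. They give no read counts, so depth is unknown, and a missing summit may reflect fewer reads as well as closed chromatin. A summit's strength is therefore given as its percentile, the percent of summits in the same library that scored no higher, and a library with no summit at a site was set to 0. With 2 libraries against 2, an exact two-sided permutation test cannot go below 0.333. No test was run, and groups are described as apart when both libraries of one lay above both of the other. Of 9 luminal prostate genes, 8 had a summit within 1 kb of their start in at least 1 library, whereas KRT5 and TP63 of basal cells, COL1A1 and DCN of stroma, and PTPRC of leukocytes had none in any. Other such markers had summits. COL1A2 had one in all 4 libraries, KRT14 in both LNCaP libraries, and CD3E in replicate 1 of each group.

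Methylation of cytosine in CpG dinucleotides is copied after replication by DNMT1, which UHRF1 brings to hemimethylated DNA. DNMT3A and DNMT3B place new methyl groups on unmethylated sites. The TET enzymes oxidise 5-methylcytosine, which starts its removal, and loss of TET2 function is best known from blood cancers.

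The sequences before 5 annotated starts are shown, and a summit lay in or beside them in the libraries described below. It was found in all 4 at DNMT1, UHRF1, TET1 and TET2 and in the resistant libraries alone at TET3. The window before the DNMT3A start at 25342483, with 21 CpG, also held a summit in all 4 libraries and is not shown. The sequences shown are the 250 bases before each start in RefSeq on GRCh38.p14. They read 5′ to 3′ on the strand of the gene, with CpG dinucleotides in capitals.
DNMT1, 5′ end, minus strand, chr19:10194954-10195203: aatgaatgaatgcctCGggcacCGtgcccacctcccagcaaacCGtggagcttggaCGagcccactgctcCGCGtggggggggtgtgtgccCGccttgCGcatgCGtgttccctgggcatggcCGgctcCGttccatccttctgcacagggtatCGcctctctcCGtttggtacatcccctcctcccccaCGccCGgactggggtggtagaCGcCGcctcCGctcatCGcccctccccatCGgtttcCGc
UHRF1, start at 4910144, plus strand, chr19:4909894-4910143: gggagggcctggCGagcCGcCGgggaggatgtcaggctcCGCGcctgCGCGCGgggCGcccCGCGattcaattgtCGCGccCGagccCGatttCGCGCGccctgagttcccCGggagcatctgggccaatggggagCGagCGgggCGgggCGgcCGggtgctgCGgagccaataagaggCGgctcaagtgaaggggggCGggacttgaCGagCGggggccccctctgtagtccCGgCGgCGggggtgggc
TET1, inner start at 68600474, plus strand, chr10:68600224-68600473: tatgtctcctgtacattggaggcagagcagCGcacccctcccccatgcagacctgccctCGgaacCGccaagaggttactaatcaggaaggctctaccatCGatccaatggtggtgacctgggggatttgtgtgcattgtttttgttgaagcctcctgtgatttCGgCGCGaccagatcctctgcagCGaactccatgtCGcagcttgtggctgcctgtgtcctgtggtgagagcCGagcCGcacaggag
TET2, second start at 105146876, plus strand, chr4:105146626-105146875: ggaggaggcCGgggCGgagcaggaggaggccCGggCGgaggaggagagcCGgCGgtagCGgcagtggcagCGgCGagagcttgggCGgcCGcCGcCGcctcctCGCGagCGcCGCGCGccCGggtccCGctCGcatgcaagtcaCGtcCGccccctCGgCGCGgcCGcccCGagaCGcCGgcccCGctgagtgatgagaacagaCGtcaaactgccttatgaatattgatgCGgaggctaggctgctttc
TET3, inner start at 74002692, plus strand, chr2:74002442-74002691: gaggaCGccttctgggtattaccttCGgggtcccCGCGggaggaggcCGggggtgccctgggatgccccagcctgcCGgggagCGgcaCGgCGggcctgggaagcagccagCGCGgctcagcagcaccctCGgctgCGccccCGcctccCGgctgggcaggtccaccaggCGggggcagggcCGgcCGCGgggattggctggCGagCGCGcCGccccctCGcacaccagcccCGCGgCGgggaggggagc
The TET2 sequence held 34 CpG, that of UHRF1 32, that of TET3 27, that of DNMT1 21 and that of TET1 11, against a median of 11 over the 35116 RefSeq promoter windows of the same length. The inner start of TET1 was thus no richer in CpG than a typical window, while the start of TET2 had as many CpG as or more than 94.2% of them. Of the motifs searched on both strands, the E2F motif TTTCGCGC was found once before the UHRF1 start and in no other window of the 7 genes, and 0.439% of all windows hold it. The SP motif GGGCGG, held by 42.6% of all windows, occurred 5 times before the TET2 start, 3 times before that of UHRF1 (matches that share a base each counted) and once before the inner start of TET3. The E-box CACGTG, held by 6.34% of all windows, was in none of these 5 sequences. The ETS motif CCGGAAG, the CRE motif TGACGTCA and the NRF1 motif, a palindrome searched by exact match, held by 8.52%, 1.65% and 1.03% of windows, were in no window of the 7 genes. The start windows of UHRF1, TET1, TET2 and TET3 lie inside the gene record, and whether an exon of a longer transcript crosses them was not analysed here.

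Resistant cells had summits at the starts of these genes, as LNCaP cells did, and fewer inside them. The 7 windows held 48 and 50 summits in LNCaP, against 36 and 27 in resistant cells, so that the resistant mean was 64.3% of the LNCaP mean. The median protein-coding window had 63.6%, and the whole lists 51.9%. As a share of each library's summits the windows took 0.0409% and 0.0466% in LNCaP and 0.0508% and 0.0592% in resistant cells, a difference of 0.0112 percentage points with a pooled SD of 0.00505 (n = 2 per group).

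The difference in number was uneven among the genes. DNMT1 had 5 and 5 summits in LNCaP and 1 and 1 in resistant cells, and TET2 had 9 and 8 against 2 and 2. DNMT3A had 9 and 8 against 6 and 5. In these 3 windows the groups lay apart with lower counts in resistant cells, as they did in 47.9% of protein-coding windows, and no member was apart in the other direction, as 2.52% of windows were. The remaining ratios at DNMT1 and TET2, 20.0% and 23.5%, were matched or undercut by 7.63% and 8.8% of windows. Many of the LNCaP summits in these 2 windows were weak. Apart from the 5′ end and a region at 10.2 kb, those of DNMT1 had scores from 2.14 to 6.67. Apart from the start, those of TET2 had scores from 2.66 to 19.3, and the medians of the LNCaP lists were 11.6 and 10.3. Counts of single genes were not repeated at scores of at least 10 or with equal numbers of summits. The counts of the other 4 genes overlapped between the groups, with 7 and 5 against 5 and 3 at DNMT3B, 7 and 8 against 8 and 6 at UHRF1, 3 and 5 against 4 and 4 at TET1, and 8 and 11 against 10 and 6 at TET3.

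**Figure D1:**
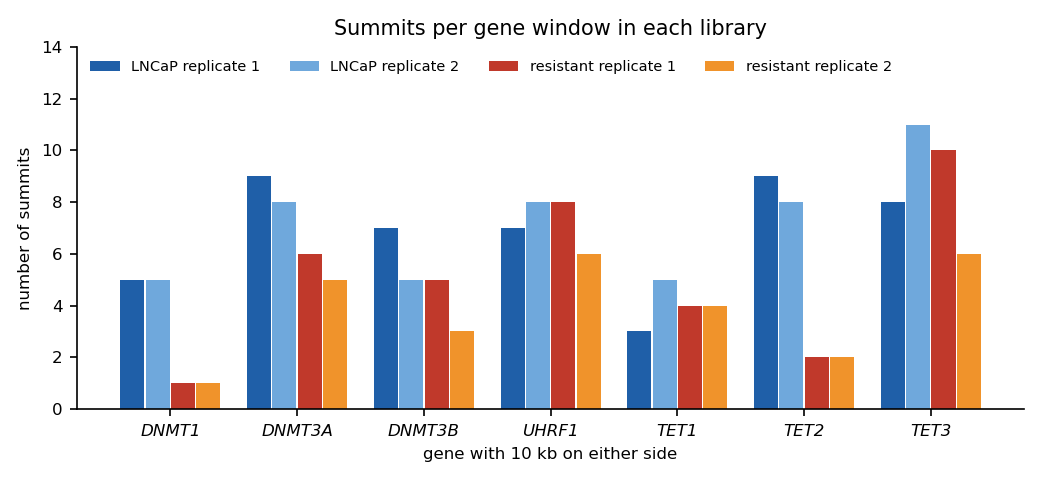
Number of ATAC-seq summits (vertical axis) in the window of each gene, 1 bar per library. Both resistant libraries had 1 summit at DNMT1 and 2 at TET2, where the LNCaP libraries had 5 and 5, and 9 and 8.

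Summits widened by 250 bp on either side were merged where they met, which gave the 61 regions. All 4 libraries had a summit in 19 of them (31.1%, against 21.1% of all regions), 13 were found in both LNCaP libraries and no resistant library (21.3%, against 27.5%), 3 in both resistant libraries and no LNCaP library (4.92%, against 3.84%), and 26 in only 1 library of a group. Position within the gene divided them. Of 14 regions within 1 kb of an annotated start, 9 were shared, 0 were LNCaP-only and 1 was resistant-only, where protein-coding windows gave 57.2%, 7.0% and 5.37%. One of those 9 lies at the start of KDM4B, beyond UHRF1. Of 47 regions away from starts, 10 were shared, 13 LNCaP-only and 2 resistant-only, where protein-coding windows gave 16.7%, 30.7% and 3.42%. All 13 LNCaP-only regions of these genes thus lay away from starts, in the pattern of protein-coding windows at large.

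**Figure D2:**
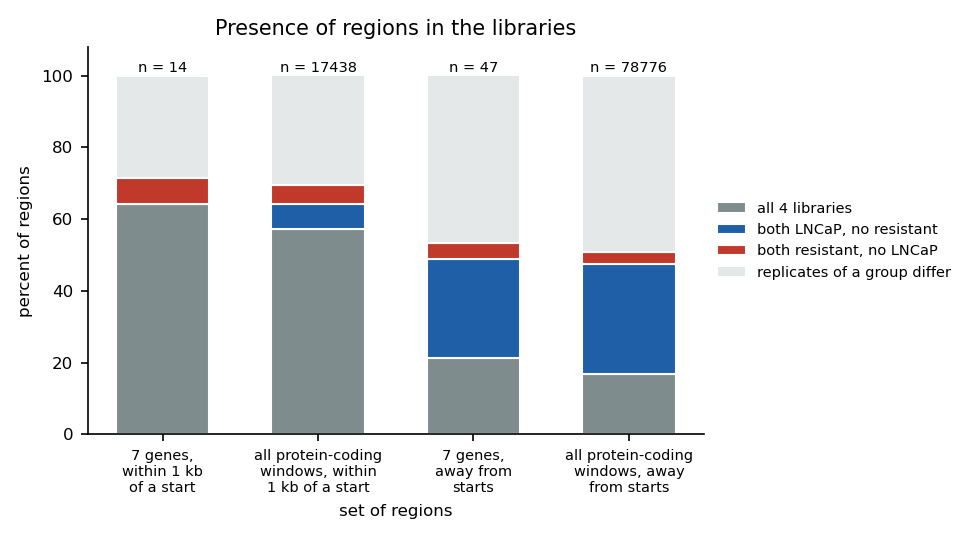
Percent of regions (vertical axis) found in all 4 libraries, in one group only, or in 1 library of a group, for the 7 genes and for all protein-coding windows, within 1 kb of an annotated start and away from starts. The 14 regions of these genes near a start include 9 shared and no LNCaP-only region, and the 47 away from starts include 13 LNCaP-only regions.

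The rank of the shared regions also differed with position. Of the 9 shared regions near a start, 3 were apart with a higher percentile in resistant cells, 1 with a lower one and 5 overlapped, with a median change of 1.8 points. Over all shared regions near a start, 26.7% were higher and 23.4% lower, with a median of 0.142. Of the 10 shared regions away from starts, 8 were lower, 1 was higher and 1 overlapped, and the median change was -27.1 points. Over all such regions 51.1% were lower and 13.0% higher, with a median of -11.9. Resistant replicate 2, the shortest list, had the lowest percentile in all 8 of those that were lower. A percentile depends on the length of the list. Those of the shared regions away from starts were not repeated with equal numbers of summits or at scores of at least 10. Whether their lower rank follows from list length was not tested. One of these 8, at 68.1 kb of the UHRF1 window, lies within the KDM4B record and changed by -52.1 points. Those at -7.5 and 12.3 kb of the same window also lie within the record of ARRDC5.

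**Figure D3:**
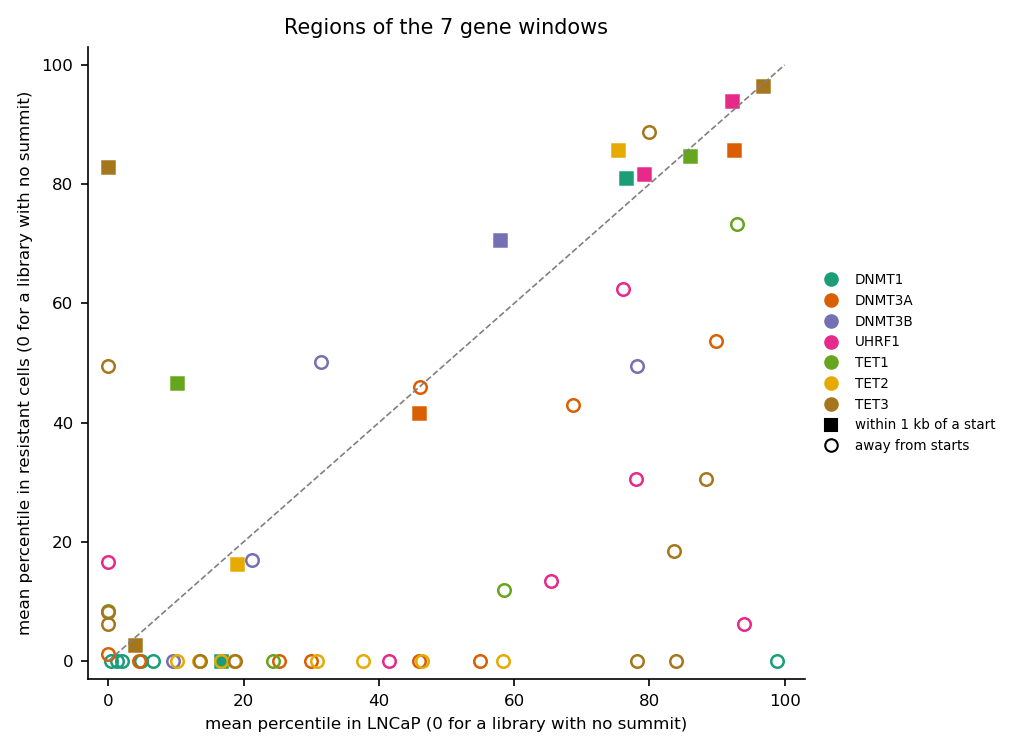
Mean percentile in the 2 resistant libraries (vertical axis) against the 2 LNCaP libraries (horizontal axis) for each of the 61 regions, coloured by gene, with filled squares within 1 kb of an annotated start and open circles elsewhere. Near-start regions with strong summits sit close to the dashed line of equal percentiles apart from the inner start of TET3 at the upper left, while most open circles lie below it, down to the DNMT1 region at 98.8 and 0.

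At the 5′ ends themselves, DNMT1, DNMT3B, TET1 and TET2 had higher percentiles in both resistant libraries than in either LNCaP library, DNMT3A had lower ones, TET3 overlapped, and UHRF1 had no summit there in any library. Among 11549 protein-coding genes with a start summit, 28.9% were higher, 20.7% lower and 50.5% overlapping. The median change over the 6 genes with a summit was 7.52 points (4.54 with UHRF1 at no change) and over all those genes 0.628. Taking the strongest start of each gene, the LNCaP means ran from 96.8 at TET3 through 92.5 at DNMT3A, 86.0 at the inner start of TET1, 79.2 at UHRF1, 76.5 at DNMT1 and 75.3 at TET2 to 57.9 at DNMT3B. The neighbours UHRF1 and DNMT1, and DNMT1 and TET2, overlapped between their 2 libraries, and the other steps did not. In resistant cells TET3 at 96.4 again stood above and DNMT3B at 70.7 below the other 5, whose means lay between 81.1 and 85.8 and overlapped from each neighbour to the next.

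**Figure D4:**
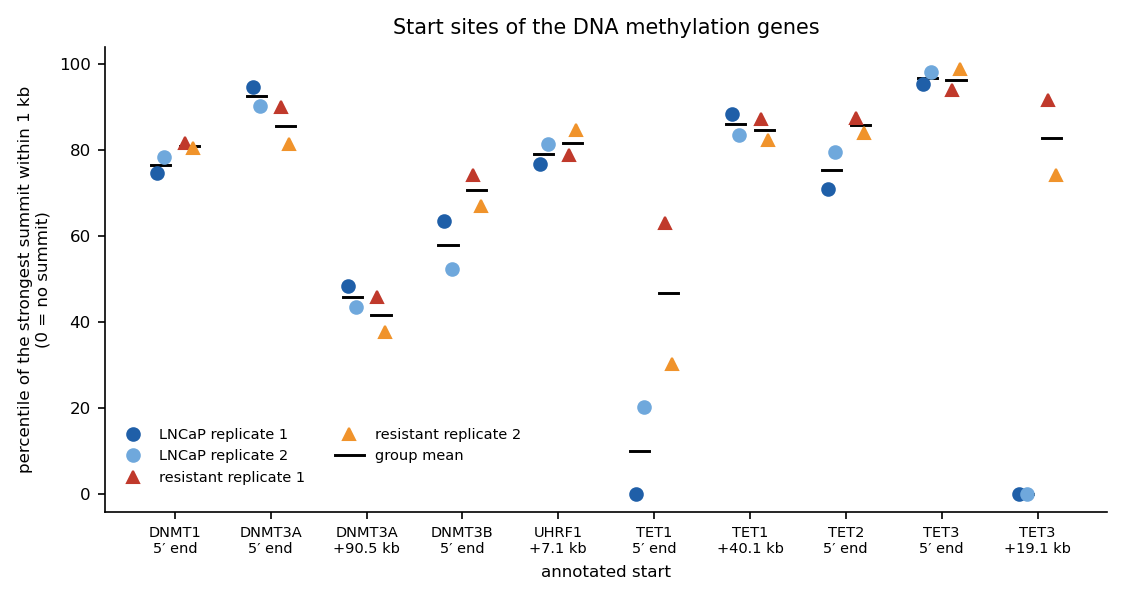
Percentile of the strongest summit within 1 kb of annotated starts (vertical axis) in each library. A bar marks each group mean, and 0 stands for a library without a summit. Starts of a gene that share the same summits are drawn once. Starts with no summit in any library, and the weak TET3 start at +1.28 kb, are left out. The DNMT1, DNMT3B and TET2 starts rank higher in both resistant libraries, and the TET3 start at +19.1 kb has a summit only in the resistant libraries, at 91.6 and 74.2.

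DNMT1, the maintenance methyltransferase, occupies chr19:10133346-10194953 on the minus strand. Its 5′ end had percentiles of 74.7 and 78.4 in LNCaP and 81.6 and 80.5 in resistant cells, with summits at -40 to -18 bp from the start in every library. The difference was 4.54 points with a pooled SD of 1.93, and within replicate numbers it was 6.94 and 2.14. It was 2.69 without LNCaP replicate 1 and 34.0 with equal numbers of summits from each library, a setting under which the median over all genes was 16.0. The authors' scores there were 23.1 and 22.0 against 49.1 and 30.2. The start was therefore open in every library, ranked slightly higher in resistant cells, and lay within the CpG-rich sequence shown above.

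The inside of DNMT1 gave the strongest group-specific region of the 7 genes. At chr19:10184518-10185019, 10.2 kb into the gene record, LNCaP replicates 1 and 2 had summits at percentiles 98.5 and 99.1, 1 bp apart, and neither resistant library had one. It ranked 61 of the 41503 LNCaP-only regions by mean percentile. Most regions of this strength away from starts had a resistant summit. Of 507 at least this strong in both LNCaP libraries, 57 (11.2%) had no summit in either resistant library, and of 4881 at or above percentile 90 in both, 1061 (21.7%) had none. Near starts the share was 64 of 3326 (1.92%). The other 6 regions in the DNMT1 window came from 1 LNCaP library each, at percentiles of 33.2 or less, and no resistant library had a summit there.

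UHRF1, which recognises hemimethylated CpG and recruits DNMT1, occupies chr19:4903080-4962154 on the plus strand. No library had a summit within 1 kb of the end of its gene record, and the summits lay 6.95 kb inside, at -125 to -102 bp from the listed start at 4910144. They had percentiles of 76.8 and 81.5 in LNCaP and 78.8 and 84.7 in resistant cells, a difference of 2.57 points within a pooled SD of 3.75. The start of UHRF1, with its E2F motif, thus did not differ beyond the spread of the libraries.

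By percentile in the full lists, regions around the UHRF1 start ranked lower in resistant cells. At 12.3 kb the percentiles were 75.6 and 76.5 in LNCaP and 69.9 and 55.0 in resistant cells. At -7.5 kb, before the record, they were 77.7 and 78.3 against 57.1 and 3.86. The scores at 12.3 kb were 23.6 and 20.7 in LNCaP and 31.1 and 12.8 in resistant cells, which overlap. At -7.5 kb the scores were 25.4 and 21.9 against 19.9 and 2.22. Neither region was ranked again with equal numbers of summits. These 2 regions and the start also lie within the record of ARRDC5, which ATAC-seq cannot separate from UHRF1. At 36.5 kb, within UHRF1 alone, LNCaP libraries had 96.3 and 91.6 while resistant replicate 1 had 12.4 and replicate 2 had no summit, a difference of -87.8 points. A region at 56.4 kb was LNCaP-only at 38.6 and 44.4, and one at 30.6 kb was resistant-only at 29.4 and 3.86. Past the end of UHRF1, the region at 65.7 kb belonged to the start of KDM4B, a histone demethylase gene, 286 bp away. By the mean over all 4 libraries it was the strongest of the window, at 92.7 and 91.7 in LNCaP and 97.9 and 90.1 in resistant cells, which overlap. Its neighbour at 68.1 kb had 63.5 and 67.6 in LNCaP and 22.3 and 4.54 in resistant cells, and both groups lay apart.

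DNMT3A, a de novo methyltransferase, occupies chr2:25227874-25342590 on the minus strand. Its 5′ end had 94.7 and 90.4 in LNCaP and 90 and 81.4 in resistant cells. It was the 1 start of the 7 genes that was apart in the lower direction, with a difference of -6.84 points and a pooled SD of 4.82. The difference was -2.54 without resistant replicate 2, -11.1 without resistant replicate 1, and 1.06 with equal numbers of summits. At the inner starts, 90.3 to 90.5 kb into the gene, percentiles of 48.4 and 43.6 in LNCaP and 45.8 and 37.7 in resistant cells overlapped.

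Inside DNMT3A the differences were larger than at its starts. At 47.3 kb the percentiles were 86.3 and 93.2 in LNCaP and 69.0 and 38.5 in resistant cells, and at 114 kb they were 65.9 and 71.5 against 55.7 and 30.3. The differences of -36.0 and -25.7 points exceeded the pooled SDs of 15.6 and 13.0. Regions at 63.2, 79.6 and 123 kb were LNCaP-only, with LNCaP means of 29.9, 54.9 and 25.3. About 30 to 31 kb into the gene LNCaP replicates 1 and 2 had summits at percentiles 92.1 and 92.0 that lay too far apart to merge, 30934 and 30084 bp from the end, and resistant summits at 31207 and 30938 bp had 60.6 and 31.4.

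DNMT3B, the second de novo methyltransferase, occupies chr20:32762385-32809356 on the plus strand. Its 5′ end had 63.5 and 52.3 in LNCaP and 74.2 and 67.1 in resistant cells, with the strongest summits 209 to 220 bp inside the gene. The difference was 12.7 points with a pooled SD of 6.65, and within replicate numbers it was 10.7 and 14.8. It was 7.12 without LNCaP replicate 2, 29.3 at scores of at least 10 and 60.4 with equal numbers of summits. DNMT3B was thus the least open start of the 3 methyltransferases in LNCaP and had the largest difference between the groups. The listed start 17.5 kb into the gene, with 3 CpG in the 250 bases before it, had no summit within 1 kb in any library.

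No region of DNMT3B was found in both libraries of one group and neither of the other. At 27.8 kb the percentiles were 75.9 and 80.3 in LNCaP and 68.7 and 30.3 in resistant cells, a difference of -28.6 points with a pooled SD of 19.3. At 14.8 kb they were 24.0 and 39.1 against 61.9 and 38.3, which overlap. The protein-coding genes whose start percentiles lay nearest to those of DNMT3B over the 4 libraries, by Euclidean distance in points, were TMEM25 (1.27), TMEM52 (3.32), PHYKPL (3.87), RPL38 (4.43) and PPP1CC (4.58).

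TET1 occupies chr10:68560337-68694487 on the plus strand and has starts at the 5′ end and about 40.1 kb further in. At the 5′ end LNCaP replicate 1 had no summit and replicate 2 had 20.4, against 63.2 and 30.3 in resistant cells. At the inner start the percentiles were 88.5 and 83.6 in LNCaP and 87.3 and 82.3 in resistant cells. The 5′ end thus differed by 36.6 points with a pooled SD of 19.4, while the inner start, the stronger of the pair in every library, differed by -1.24 points with a pooled SD of 3.49. The summits at the 5′ end did not coincide, at 441 bp in LNCaP replicate 2, 445 bp in resistant replicate 1 and 53 bp in resistant replicate 2. Their scores were 4.94, 24.5 and 6.08, so that at scores of at least 10 only resistant replicate 1 had a summit and the groups were not apart. The difference at the 5′ end was 20.1 without resistant replicate 1.

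Of the other 4 regions of TET1, 2 were apart and lower in resistant cells. The region at 73.9 kb had 92.2 and 93.8 in LNCaP and 80.1 and 66.8 in resistant cells, a difference of -19.6 points with a pooled SD of 6.7. The region at -9.36 kb, before the gene, had 47.8 and 69.3 in LNCaP and 23.8 in resistant replicate 2 alone. Those at 74.4 and 87.9 kb came from 1 library each, LNCaP replicate 2 with 48.7 and resistant replicate 1 with 16.8. The genes nearest to the 5′ end of TET1 by start percentiles were NRROS (3.93), SH2D3C (4.07), SLC2A4RG (8.94), GJA3 (8.97) and TMEM181 (10.7), all with no summit in LNCaP replicate 1.

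TET2 occupies chr4:105145875-105279803 on the plus strand. Within 1 kb of its 5′ end the percentiles were 71.1 and 79.5 in LNCaP and 87.6 and 84.1 in resistant cells. All 4 summits lay 830 to 935 bp inside the gene, which is at -171 to -66 bp from the second start at 105146876, in the CpG-rich sequence shown above. The difference was 10.5 points with a pooled SD of 4.53, and the authors' scores were 20.8 and 22.6 against 62.6 and 34.4. It was 6.33 without LNCaP replicate 1, 21.8 at scores of at least 10 and 43.6 with equal numbers of summits. No library had a summit within 500 bp of the 5′ end, so the difference was measured at the second start.

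Inside TET2 the resistant lists held no summit away from the starts. Beyond a weak region at 1.91 kb, where LNCaP replicate 1 had 38.1 and the resistant libraries had 22.4 and 10.2, neither resistant library had any summit in the window. LNCaP had 6 regions found in both of its libraries, at 36.5, 44.5, 47.2, 61.7, 65.5 and 91.4 kb, which made TET2 the gene with the most LNCaP-only regions of the 7. They were of low to middle rank, with LNCaP means from 13.4 at 65.5 kb to 58.3 at 61.7 kb. The libraries differed widely in some, as at 47.2 kb with 23.6 and 69.3. None of the 6 had a score of at least 10 in both LNCaP libraries, and the region at 61.7 kb had 19.3 and 9.37. At scores of at least 10 none of them thus counted as LNCaP-only. Whether resistant cells lost these regions or their shorter lists missed them was not tested. All 6 lie within the record of the antisense RNA TET2-AS1 as well, and the start lies within that of LOC124900868.

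TET3 occupies chr2:73983631-74135498 on the plus strand and had the strongest start of the 7 genes. Its 5′ end had 95.4 and 98.2 in LNCaP and 93.9 and 98.8 in resistant cells, and the difference of -0.441 points was within the pooled SD of 2.82. An inner start told the groups apart. At 74002692, 19.1 kb into the gene, neither LNCaP library had a summit within 1 kb, while resistant replicates 1 and 2 had summits at -2 and -11 bp from the start with scores of 74.9 and 23.9 and percentiles of 91.6 and 74.2. The region, chr2:74002431-74002940, ranked 181 of 5793 resistant-only regions.

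Such a pattern was uncommon among annotated starts. Of 22199 listed starts, 698 (3.14%) had a summit in both resistant libraries and in neither LNCaP library, in 586 genes (3.7% of 15843), and 529 (2.38%) had the reverse. At 44 of them (0.198%), in 36 genes (0.227%), the resistant mean was at least the 82.9 points of TET3, a threshold set by TET3 itself. For the 7 genes together, 1 of 14 regions near a start was resistant-only (7.14%), close to the 5.37% of protein-coding windows. The sequence before this start, printed above, held 27 CpG and 1 SP motif. A weaker resistant-only region lay at -1.71 kb, before the gene, with percentiles of 47.0 and 51.9. The record of the long noncoding RNA DGUOK-AS1 reaches to -2192 bp, beside the summits of this region at -1946 to -1465 bp. No start of DGUOK-AS1 was listed there, so the region counted as away from starts.

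The regions on either side of this start ranked lower in resistant cells. At 16.7 kb the percentiles were 86.3 and 90.6 in LNCaP and 49.4 and 11.5 in resistant cells, and at 26.2 kb they were 87.2 and 80.1 against 37.0 and no summit. The LNCaP-only regions at 83.4 kb, with 79.9 and 76.3, and at 116 kb, with 85.4 and 82.4, were stronger than 87.3% and 92.1% of LNCaP-only regions or equal to them. One shared region away from starts was higher in resistant cells, at 137 kb, with 83.3 and 76.4 against 92.9 and 84.7, a difference of 8.94 points with a pooled SD of 5.35, and it overlaps the pseudogene record FNBP1P1. TET3 was the 1 gene of the 7 with 2 resistant-only regions beside 2 LNCaP-only regions.

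**Figure D5:**
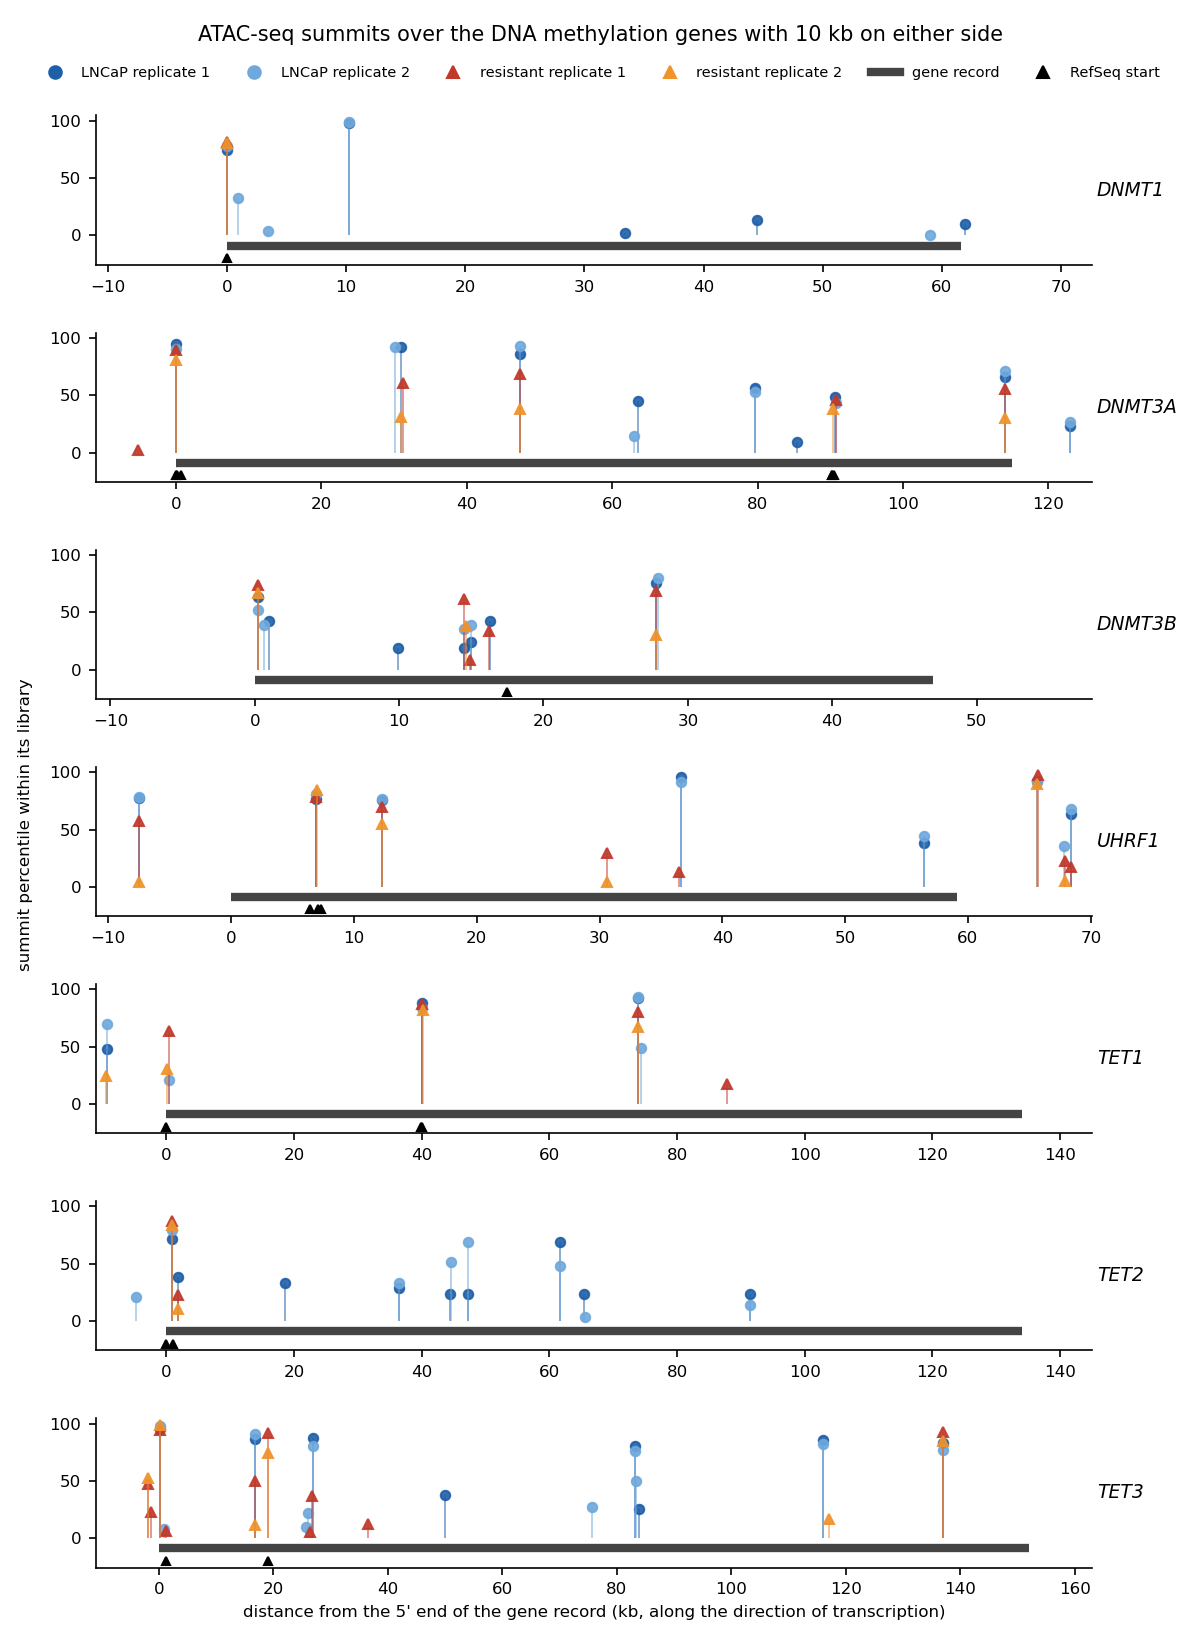
Position of every summit in the 7 windows (horizontal axis, kb from the 5′ end of the gene record in the direction of transcription) and its percentile (vertical axis), with LNCaP libraries as circles and resistant libraries as triangles, the gene record as a bar and annotated starts as small black triangles. The DNMT1 summits at 10.2 kb and the TET2 summits from 18.6 kb on are LNCaP circles alone, and the TET3 start at 19.1 kb carries resistant triangles alone.

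Genes that work with these enzymes were read the same way. Of 36, 33 had a start summit in at least 1 library, 8 were apart and higher in resistant cells, 5 were lower, and 20 of those with a summit overlapped, with a median change of 1.23 points over the 33. Over all genes with a start summit the shares were 28.9% higher, 20.7% lower and 50.5% overlapping, so these genes were apart no more often than genes in general. Maintenance and targeting partners gave 1 higher and 1 lower of 8, methyl-CpG readers 3 and 1 of 8, demethylation partners and repair enzymes 2 and 3 of 11, and genes of methyl donor supply 2 and 0 of 9. The largest difference upward was at AHCY, which clears the S-adenosylhomocysteine left by methyl transfer, with no summit in LNCaP and 55.5 and 25.4 in resistant cells. The stress gene GADD45B followed, with 48.2 and 3.44 in LNCaP and 65.5 and 54.6 in resistant cells. The largest differences downward were at CDCA7, a partner of the remodeller HELLS, with 83.7 and 74.7 in LNCaP and 65.4 and 60.9 in resistant cells, and at D2HGDH, which breaks down the TET inhibitor D-2-hydroxyglutarate, with 80.3 and 74.0 against 68.2 and 60.5.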

How the data were processed

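ATAC-seq libraries were grouped by their titles into LNCaP and LNCaP-resistance, with 2 replicates each. The authors deposited 1 list of MACS2 peak summits per library, and its score is a −log10 p-value or q-value (which of them is not given in the sources used here). The submitters' processing notes name Bowtie2 2.2.5, SAMtools 1.6, MACS2 2.2.6, deepTools 3.5.2, HOMER 4.11, edgeR 3.22.5 and the build hg38. Peaks were called per library. Whether reads were shifted for the transposase, and the peak threshold, are not given there.

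Each summit was ranked within its own list. Summits widened by 250 bp on either side were merged over the 4 lists, on the main chromosomes. Gene records and starts came from RefSeq (GRCh38.p14), and all 7 genes were found in both tables. The gene table gives no strand, so the 5′ end was set from the promoter table, which covers 15843 of 20037 protein-coding genes, and for supporting and marker genes outside it the better of both ends was used. Listed starts of 1 chromosome were not used here, and 1 marker gene is not reported here. Exons, introns and sequence within genes were not analysed here. Values are means with SD (n = 2), and no test was run. The genes, the supporting lists and the rule for named genes (all 7 genes with every region held by both libraries of a group, the supporting genes with the 2 largest rises and falls, and the 5 genes nearest to DNMT3B and TET1) were chosen with earlier results of these data known. The replicate numbers match a batch label. Deviations from the group means did not go together between equal numbers (correlation 0.00407 over start sites, -0.012 over shared regions), and comparisons within a number were made as an alternative. The computation was tested on simulated lists. Python 3.11.15, numpy 2.4.6, pandas 2.3.3 and matplotlib 3.10.9 were used.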

Additional observations from a re-analysis of the deposited data

How the results depend on the processing

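Of 85 alternatives for the main results, 25 moved the value. The other 60 counted as unmoved, and that count was partly fixed in advance. For the share and for the median change at the starts, the replicate block returned the main value by construction. Leaving out 1 library cannot move the share beyond the spread between libraries. The difference in the share of summits, 0.0112 points, was 0.0179 with 50 kb flanks, 0.00425 with scores of at least 10 and 0.00219 with equal numbers of summits, and lay between 0.00704 and 0.0154 when 1 library was left out. Shared regions numbered 11 in place of 19 at scores of at least 10, and between 19 and 21 without 1 library. The 13 LNCaP-only regions became 27 when 1 library sufficed, 7 at scores of at least 10 and 5 with equal numbers, and the 3 resistant-only regions became 7 when 1 library sufficed and 5 with equal numbers. Without 1 library there were between 14 and 22 LNCaP-only regions (20 without LNCaP replicate 1, 22 without replicate 2) and between 4 and 6 resistant-only regions (5 without LNCaP replicate 1, 6 without resistant replicate 2). With the replicate block, which compares libraries within replicate 1 or 2, LNCaP-only regions numbered 23 and 25 and resistant-only regions 8 and 6.

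The median change at the starts, 4.54 points, was 0.0 within 500 bp, 20.2 among regions of all 4 libraries, 11.9 at scores of at least 10 and 34.0 with equal numbers, and between 2.69 and 6.39 without 1 library. The median of all genes moved as well, from 0.628 to 8.85, 3.02 and 16.0 under those last 3 settings. No start was then apart and lower (0 in place of 1 under each), though the DNMT3A difference was still -3.27 among regions of all 4 libraries and -10.8 at scores of at least 10. Leaving out 1 library gave 1 or 2 such starts, the latter without resistant replicate 2. The DNMT3A start differed by 1.06 with equal numbers, and that of TET1 by -1.24 when any listed start counted, a setting chosen after seeing the data. Of 91 alternatives for single genes and sites, 72 moved the value by no more than the spread between libraries. Another 17 moved it by that much or more. The 2 named above, at DNMT3A and TET1, reversed a difference between groups that lay apart. Leaving out 1 library cannot move a value beyond that spread, so the count of 72 was partly fixed in advance. A change of sign where the groups overlapped was not counted as a reversal. With equal numbers, the TET3 5′ end went from -0.441 to 2.69 and the inner start of TET1 from -1.24 to 15.4. The TET3 inner start stayed between 69.4 and 91.6 and the DNMT1 inner region between -99.1 and -97.0 points in the settings run.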
